A study of Rattus norvegicus with 145 samples.

Results

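Homologous recombination and Fanconi repair genes were followed in the livers of rats given acetamide. The members were chosen by name: Brca1, Brca2, Rad54l, Blm, Exo1, Fanca, Fancd2, Fanci and Parpbp. Of these 9 symbols, 7 had a row in each of the 5 raw count tables, among 17337 gene symbols that all tables share, and Blm and Fanci are not analysed here. All 7 were expressed highly enough to be tested in every data set. Poly(A)+ RNA of the left liver lobe was sequenced from the rats of 29 groups of 5, after daily gavage of acetamide in water or of water alone (control, 0 mg/kg/day). Experiment A used Hsd:WI Wistar males, 9 to 10 weeks old, which had a vehicle group and doses of 30, 100 and 300, with 1000 mg/kg/day the highest, for 7 days and were sampled on day 8. Experiment B used Crl:WI Wistar males and females, 8 to 10 weeks old, which were given 0, 300, 500, 750, 1000 or 1500 mg/kg/day for 7 days (sampled on day 8) or 28 days (sampled on day 29). All rats carried their strain's unmodified genotype, were fasted overnight before sampling, and were compared with the vehicle group of their own data set. The control males of day 29 carry an experiment label of the other study arm, while their titles, strain and age are those of experiment B, where they were placed.

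Homologous recombination repairs a DNA double-strand break by copying the intact sister chromatid, so it works in S and G2 phase. Several of its genes are expressed more in dividing cells than in resting ones. The broken end is first trimmed to a single-stranded tail by nucleases such as EXO1, a step that BRCA1 promotes; BRCA2 and RAD54 (the product of Rad54l) then act in the search for and exchange with the intact strand, and PARPBP, the PARP1-binding protein also called PARI, restrains recombination. The Fanconi proteins act where the strands are crosslinked or a fork has stalled: FANCA belongs to the core complex that ubiquitinates FANCD2, which then directs the crosslink to nucleases and to recombination. The adult liver is largely quiescent, and it re-enters the cell cycle after injury or mitogen exposure. Acetamide causes liver tumours in rats at high dietary doses.

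The tables held 15449716 to 39986531 reads assigned to genes per rat (median 28262376). Values are given as CPM, a gene's count relative to the gene reads of its library on the usual counts-per-1e6 scale, corrected by TMM (trimmed mean of M values, a correction for composition, with factors from 0.735 to 1.91). The 7 genes are weakly expressed in whole liver: over all rats the median count was 138 reads for Brca1, 102 for Brca2, 77 for Fanca, 58 for Fancd2, 30 for Parpbp, 20 for Rad54l and 10 for Exo1, and the lowest Exo1 value was 1 read. No 2 rats had identical columns. Replicate 3 of the males given 1500 mg/kg/day until day 29 stood far from its group, with the highest value of all 7 genes, so the tests and list counts of that group are also given without it. The 10 hepatocyte markers summed to between 67016 and 360068 CPM in the control and highest-dose rats. In experiment A the controls held 227166 to 317429 CPM and the rats at 1000 mg/kg/day 67016 to 216511 CPM, without overlap. In females on day 29 the median was 206432 CPM in controls and 153867 CPM at 1500 mg/kg/day. The median was also lower at the highest dose in the other data sets. In whole tissue a change in the share of cells that express a gene and a change in its RNA per cell cannot be told apart.

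The 5′ ends of 4 of the genes are shown because the genes' levels moved together across rats: Exo1 and Rad54l, which passed the test at the highest dose in 3 data sets, Fancd2, likewise, and Parpbp, which passed in 2. Males on day 29 are among these data sets, and without replicate 3 the numbers become 2, 2, 2 and 1. Brca2 (experiment A and females on day 29) and Fanca (experiment A and males on day 29) also passed in 2. These numbers therefore do not set Parpbp apart from Brca2 and Fanca. The windows of Brca1, Brca2 and Fanca are not printed, and that of Brca2 held none of the motifs below. Each sequence is the RefSeq window from 250 bases before to 50 after the gene's start on assembly GRCr8 (the counts were made on Rn6, so these coordinates are not those of the count tables), written 5′ to 3′ on the gene's strand. Capitals mark exact matches on either strand to letters known from promoters of cell cycle genes: TTCCCGC and TTGGCGC (E2F), TTTGAA (the CHR element) and CCAAT (the CCAAT box). None of these motifs overlapped another in the windows.
Exo1 (chr13:90341768-90342067, plus strand): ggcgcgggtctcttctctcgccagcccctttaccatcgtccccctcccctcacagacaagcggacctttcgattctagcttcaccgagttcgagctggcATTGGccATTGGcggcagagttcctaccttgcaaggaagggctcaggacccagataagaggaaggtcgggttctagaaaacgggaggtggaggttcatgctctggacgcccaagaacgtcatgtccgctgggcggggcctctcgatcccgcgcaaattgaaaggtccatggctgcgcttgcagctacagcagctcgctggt
Rad54l (chr5:134841722-134842021, minus strand): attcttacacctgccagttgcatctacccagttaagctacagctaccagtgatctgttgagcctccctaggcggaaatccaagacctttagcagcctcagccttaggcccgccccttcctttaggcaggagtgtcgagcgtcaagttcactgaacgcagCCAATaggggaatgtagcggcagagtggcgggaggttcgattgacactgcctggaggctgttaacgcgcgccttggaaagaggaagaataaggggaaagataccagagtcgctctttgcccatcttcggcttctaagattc
Fancd2 (chr4:148234458-148234757, plus strand): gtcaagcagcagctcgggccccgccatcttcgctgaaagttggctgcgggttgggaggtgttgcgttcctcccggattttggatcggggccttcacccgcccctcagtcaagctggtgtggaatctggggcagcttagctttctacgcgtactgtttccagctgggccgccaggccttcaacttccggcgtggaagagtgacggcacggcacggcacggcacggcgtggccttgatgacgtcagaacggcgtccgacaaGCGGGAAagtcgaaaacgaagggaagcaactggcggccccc
Parpbp (chr7:24461107-24461406, minus strand): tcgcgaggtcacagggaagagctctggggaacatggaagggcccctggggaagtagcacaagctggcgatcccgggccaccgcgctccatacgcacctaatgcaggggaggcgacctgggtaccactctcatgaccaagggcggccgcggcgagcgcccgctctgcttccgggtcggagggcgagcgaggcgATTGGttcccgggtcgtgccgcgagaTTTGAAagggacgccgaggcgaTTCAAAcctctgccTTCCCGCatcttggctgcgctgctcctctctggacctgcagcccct

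Windows were found for all 7 genes. TTCCCGC occurred in 3 of the 7, Brca1, Fancd2 and Parpbp, and in 4.21% of the 33469 RefSeq rat windows of the same length. In Fancd2 it began 10 bases and in Parpbp 5 bases downstream of the start, counting the first transcribed base as 1. TTGGCGC occurred in Brca1 only, against 2.26% of all windows, and TTTGAA in Parpbp only, against 18.3%. CCAAT occurred in 5 of the 7, all but Brca2 and Fancd2, against 37.5% of all windows. These matches describe the letters in the windows, and Brca2 held none of the 4 motifs.

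The first question was which of the genes differed from control at the highest dose of each data set. A gene was called when edgeR's quasi-likelihood test gave an adjusted p of at most 0.05 (Benjamini-Hochberg over all genes tested) and the fold change was at least 1.5; log2 fold changes are highest dose minus control with their standard error. Counts of the 7 genes with an unadjusted p under 0.05, given below, have no share of all genes at that p beside them. In no data set and at no dose was any of the 7 genes called lower. Of all genes tested, 7.45% were called lower at the highest dose in experiment A, 0.0354% in males and 0.183% in females on day 8, and 1.76% in males and 3.54% in females on day 29. At lower doses this share reached 0.532% and 1.81% (750 and 1000 mg/kg/day) in males on day 29, 0.348% (1000 mg/kg/day) in females on day 8, and 0.0175% and 0.358% (750 and 1000 mg/kg/day) in females on day 29.

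In experiment A males on day 8, 5 of the 7 genes rose at 1000 mg/kg/day, where 14.0% of the 11323 genes tested were called higher. The nuclease gene Exo1 was at 0.175, 0.181, 0.227, 0.151 and 0.262 CPM in the control rats and at 1.33, 1.81, 1.45, 1.39 and 0.953 CPM in the treated rats. The groups did not overlap, and the log2 fold change was 2.78 ± 0.37 (adjusted p = 6.8e-05). Rad54l, a DNA translocase of strand exchange, was at 0.386, 0.363, 0.113, 0.452 and 0.722 CPM in controls and at 1.05, 1.79, 0.857, 1.36 and 1.34 CPM in treated rats (log2 fold change 1.64 ± 0.42, adjusted p = 0.0054). Again every treated rat lay above every control. Brca2, a mediator of recombination, went from 2.43 ± 0.357 to 5.12 ± 0.822 CPM (mean ± SD, n = 5 each). Its lowest treated rat, at 4.20 CPM, lay above the highest control at 2.76 CPM, and the log2 fold change was 1.07 ± 0.16 (adjusted p = 0.000141). Fanca, a core complex member, went from 2.02 ± 0.410 to 3.37 ± 0.601 CPM without overlap (log2 fold change 0.74 ± 0.18, adjusted p = 0.0043). Fancd2 was at 1.09, 1.52, 1.47, 2.20 and 4.82 CPM in controls and 5.98, 4.11, 3.52, 7.13 and 4.50 CPM at 1000 mg/kg/day. Control replicate 5 lay among the treated rats, and the log2 fold change was 1.18 ± 0.34 (adjusted p = 0.012). Brca1 had an adjusted p of 0.0447 but a fold change of 1.47, short of the limit. Parpbp, where control replicate 5 was also high at 2.43 CPM, had a log2 fold change of 0.92 ± 0.45 (adjusted p = 0.121). Every treated rat lay above every control for 4 of the 7 genes, which held for 9.01% of all genes tested.

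On day 8 in males of experiment B, none of the 7 genes was called at 1500 mg/kg/day by edgeR, where 0.142% of genes were called higher. Their log2 fold changes were all positive, with a median of 0.94 against 0.00 over all genes tested, and 4 had an unadjusted p under 0.05. Exo1 was at 0.0744, 0.143, 0.134, 0.374 and 0.292 CPM in controls and at 0.493, 0.630, 0.516, 1.86 and 0.654 CPM at 1500 mg/kg/day. Every treated rat lay above every control, with replicate 4 far above the others (log2 fold change 2.08 ± 0.52, adjusted p = 0.0714). It was the only one of the 7 genes without overlap, against 1.45% of all genes. Rad54l was at 0.298 to 0.751 CPM in controls and at 0.740 to 1.63 CPM in treated rats (log2 fold change 1.14 ± 0.28, adjusted p = 0.0714). Parpbp had a log2 fold change of 1.51 ± 0.41 (adjusted p = 0.0831) and Fancd2 one of 0.94 ± 0.29 (adjusted p = 0.134). DESeq2's Wald test called 3 of them, Rad54l, Exo1 and Parpbp, where it called 1.03% of genes higher, so whether these pass depends on the tool. Brca1, Brca2 and Fanca had log2 fold changes of 0.19, 0.40 and 0.23.

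After 28 days in males, 5 genes were called higher at 1500 mg/kg/day (3.16% of all genes), and none once replicate 3 was left out (1.12% of all genes). Fancd2, the ubiquitinated effector of the Fanconi pathway, was at 1.53, 1.09, 1.42, 1.72 and 0.743 CPM in controls and at 2.25, 2.37, 33.8, 2.16 and 1.37 CPM in treated rats. Replicate 3 held 33.8 CPM, and the other 4 rats lay between 1.37 and 2.37 CPM. The log2 fold change of 2.69 ± 0.61 (adjusted p = 0.012) became 0.57 ± 0.28 (adjusted p = 0.172) without that rat. Exo1 was at 0.139, 0.0375, 0.0990, 0.370 and 0.0743 CPM in controls and at 0.659, 0.215, 6.10, 0.806 and 0.0516 CPM in treated rats. Its log2 fold change of 3.41 ± 0.79 (adjusted p = 0.013) became 1.44 ± 0.62 (adjusted p = 0.120). Parpbp, at 24.8 CPM in replicate 3 and 0.490 to 2.02 CPM in the other treated rats, went from 2.62 ± 0.69 (adjusted p = 0.0245) to 0.32 ± 0.42 (adjusted p = 0.660). Rad54l, at 5.05 CPM in that rat, went from 1.74 ± 0.51 to 0.50 ± 0.38, and Fanca, at 9.37 CPM, from 0.94 ± 0.27 to 0.39 ± 0.20. Brca1 was at 27.5 CPM in replicate 3 and at 3.45 to 6.40 CPM in the others, and its log2 fold change of 1.03 ± 0.37 (adjusted p = 0.0791) became -0.02 ± 0.21. Brca2 was at 15.4 CPM there, and its log2 fold change of 0.97 ± 0.38 (adjusted p = 0.105) became 0.14 ± 0.29. Without replicate 3 the median of the 7 log2 fold changes was 0.39 in place of 1.74, and 2 genes, Exo1 and Fancd2, kept an unadjusted p under 0.05. The 22 proliferation markers, which include Mki67 and Top2a, summed to 1520 CPM in the highest rat of this group and to 85.2 CPM in the lowest, against 82.3 to 123 CPM in controls. For none of the 7 genes did every treated rat lie above every control (2.86% of all genes), with replicate 5 the lowest treated rat for 5 of the 7.

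In females on day 8, none of the 7 genes was called at 1500 mg/kg/day by edgeR (0.522% of genes called higher), 5 had an unadjusted p under 0.05, and DESeq2 called Fancd2 and Parpbp (2.17% of genes). At 1000 mg/kg/day, where 1.03% of genes were called higher, the same 2 genes rose by edgeR. Fancd2 was at 0.657, 1.12, 1.02, 1.35 and 1.05 CPM in controls, at 3.40, 2.39, 2.15, 4.03 and 6.41 CPM at 1000 mg/kg/day and at 2.12, 1.95, 4.11, 4.56 and 1.60 CPM at 1500 mg/kg/day. Neither treated group overlapped the controls, and the log2 fold change was 1.83 ± 0.39 at 1000 mg/kg/day (adjusted p = 0.0195) and 1.46 ± 0.39 at 1500 mg/kg/day (adjusted p = 0.0632). Parpbp was at 0.232, 0.738, 0.255, 0.674 and 0.466 CPM in controls, at 1.19, 1.30, 1.26, 1.88 and 2.83 CPM at 1000 mg/kg/day and at 1.04, 0.828, 1.88, 2.25 and 0.831 CPM at 1500 mg/kg/day. All treated rats at these doses lay above the controls, with a log2 fold change of 1.83 ± 0.43 (adjusted p = 0.0299) at the lower and a 2.83-fold change (adjusted p = 0.0831) at the higher of these doses. Rad54l also had every rat at 1500 mg/kg/day above the controls, which makes 3 of the 7 genes against 1.65% of all genes. At 1000 mg/kg/day this held for 2 of the 7 genes, and the share of all genes at that dose is not given here. For all 7 genes the mean was higher at 1000 than at 1500 mg/kg/day, for example 1.10 ± 0.698 against 0.619 ± 0.363 CPM for Exo1 and 4.54 ± 1.03 against 3.53 ± 0.795 CPM for Fanca; these differences were not tested.

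After 28 days in females, 6 of the 7 genes rose at 1500 mg/kg/day, where 9.55% of the 11451 genes tested were called higher. Exo1 was at 0.194, 0.0983, 0.126, 0.0408 and 0.0800 CPM in controls and at 1.39, 1.94, 1.93, 1.11 and 0.383 CPM in treated rats. The groups did not overlap, and the log2 fold change of 3.61 ± 0.55 (adjusted p = 0.00011) was the largest of any of the 7 genes in any data set. Rad54l was at 0.389, 0.393, 0.461, 0.489 and 0.520 CPM in controls and at 2.23, 2.24, 3.00, 1.79 and 1.02 CPM in treated rats (log2 fold change 2.19 ± 0.32, adjusted p = 8.0e-05). Brca2 was at 2.92, 3.18, 3.31, 2.81 and 1.44 CPM in controls and at 7.34, 7.41, 8.81, 6.20 and 4.77 CPM in treated rats (log2 fold change 1.34 ± 0.19, adjusted p = 8.0e-05). Neither gene overlapped between the groups. Parpbp was at 0.389, 0.262, 0.335, 0.449 and 0.480 CPM in controls and at 1.97, 1.97, 2.26, 2.83 and 0.766 CPM in treated rats (log2 fold change 2.35 ± 0.42, adjusted p = 0.000438). Fancd2 was at 1.01, 0.623, 0.838, 1.18 and 1.76 CPM in controls and at 4.45, 4.83, 6.21, 4.55 and 1.15 CPM in treated rats (log2 fold change 1.98 ± 0.34, adjusted p = 0.000325). Brca1 went from 2.41 ± 1.10 to 5.82 ± 1.97 CPM (log2 fold change 1.27 ± 0.30, adjusted p = 0.0039). For Fancd2 and Brca1, replicate 5 of the treated group lay among the controls, and it was the lowest treated rat for 6 of the 7 genes. Fanca, at 3.35 ± 1.04 CPM in controls and 4.75 ± 1.02 CPM in treated rats, missed the fold and the p limit (log2 fold change 0.51 ± 0.19, adjusted p = 0.0594). Every treated rat lay above every control for 4 of the 7 genes, against 3.51% of all genes.

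**Figure D1:**
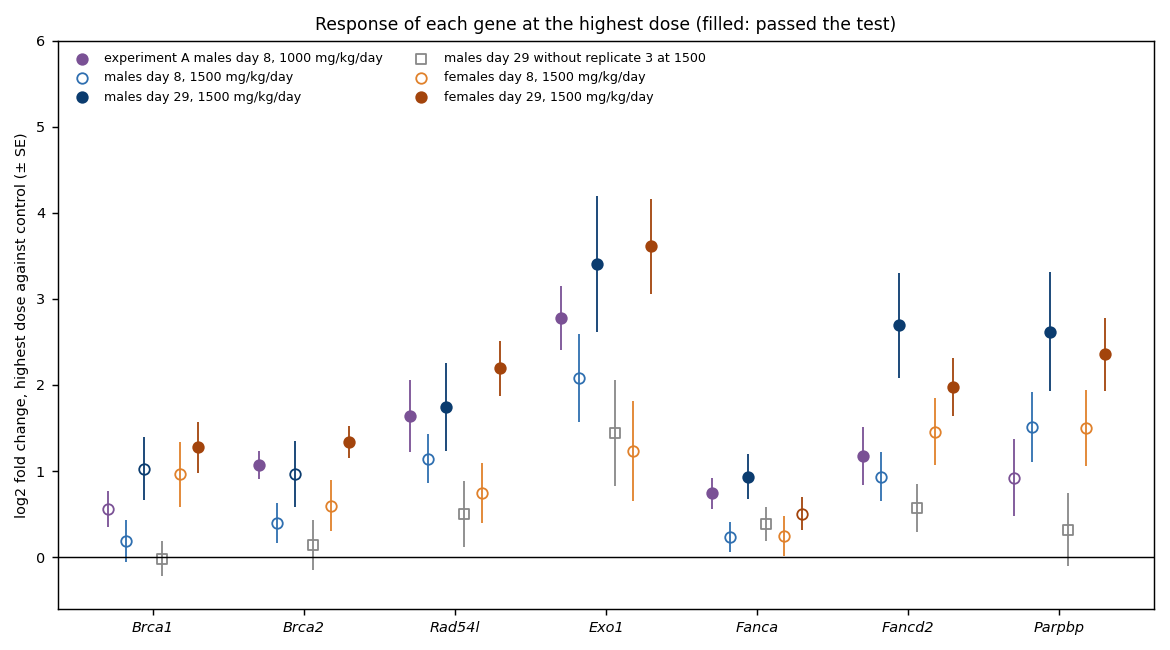
Log2 fold change (highest dose minus control) of each gene, with the standard error, in the 5 data sets and, as grey squares, in males on day 29 without replicate 3. Filled points were called; Exo1 has the largest value in experiment A (2.78), in males on day 8 (2.08), in males on day 29 (3.41) and in females on day 29 (3.61), and all grey squares are open.

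Below the highest dose, where only edgeR was run, calls were few. In experiment A none of the 7 genes was called at 30, 100 or 300 mg/kg/day, at which no gene of the whole table was called higher either (0%), and 0, 1 and 1 had an unadjusted p under 0.05. Under the same test 0 were called at the 4 lower doses in males on day 8 (0% of all genes at each) and on day 29 (0.949% at 1000 and 0.248% at 750 mg/kg/day), with at most 4 and 1 genes, respectively, at an unadjusted p under 0.05. For females on day 8 none was called at 300, 500 or 750 mg/kg/day (0.00870% of genes at each), with 1, 0 and 5 at an unadjusted p under 0.05. At day 29, females had Brca2, Rad54l and Exo1 called at 1000 mg/kg/day (1.23% of genes), with log2 fold changes of 0.85 ± 0.19, 1.21 ± 0.32 and 2.40 ± 0.57. None was called at 300 (0%), 500 (0.0349%) or 750 mg/kg/day (0.166% of genes). At these doses 0, 2 and 6 had an unadjusted p under 0.05, and at 750 mg/kg/day the smallest adjusted p was 0.0511. The percentages in this paragraph are shares of genes called, so they are no background for the counts by unadjusted p.

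**Figure D2:**
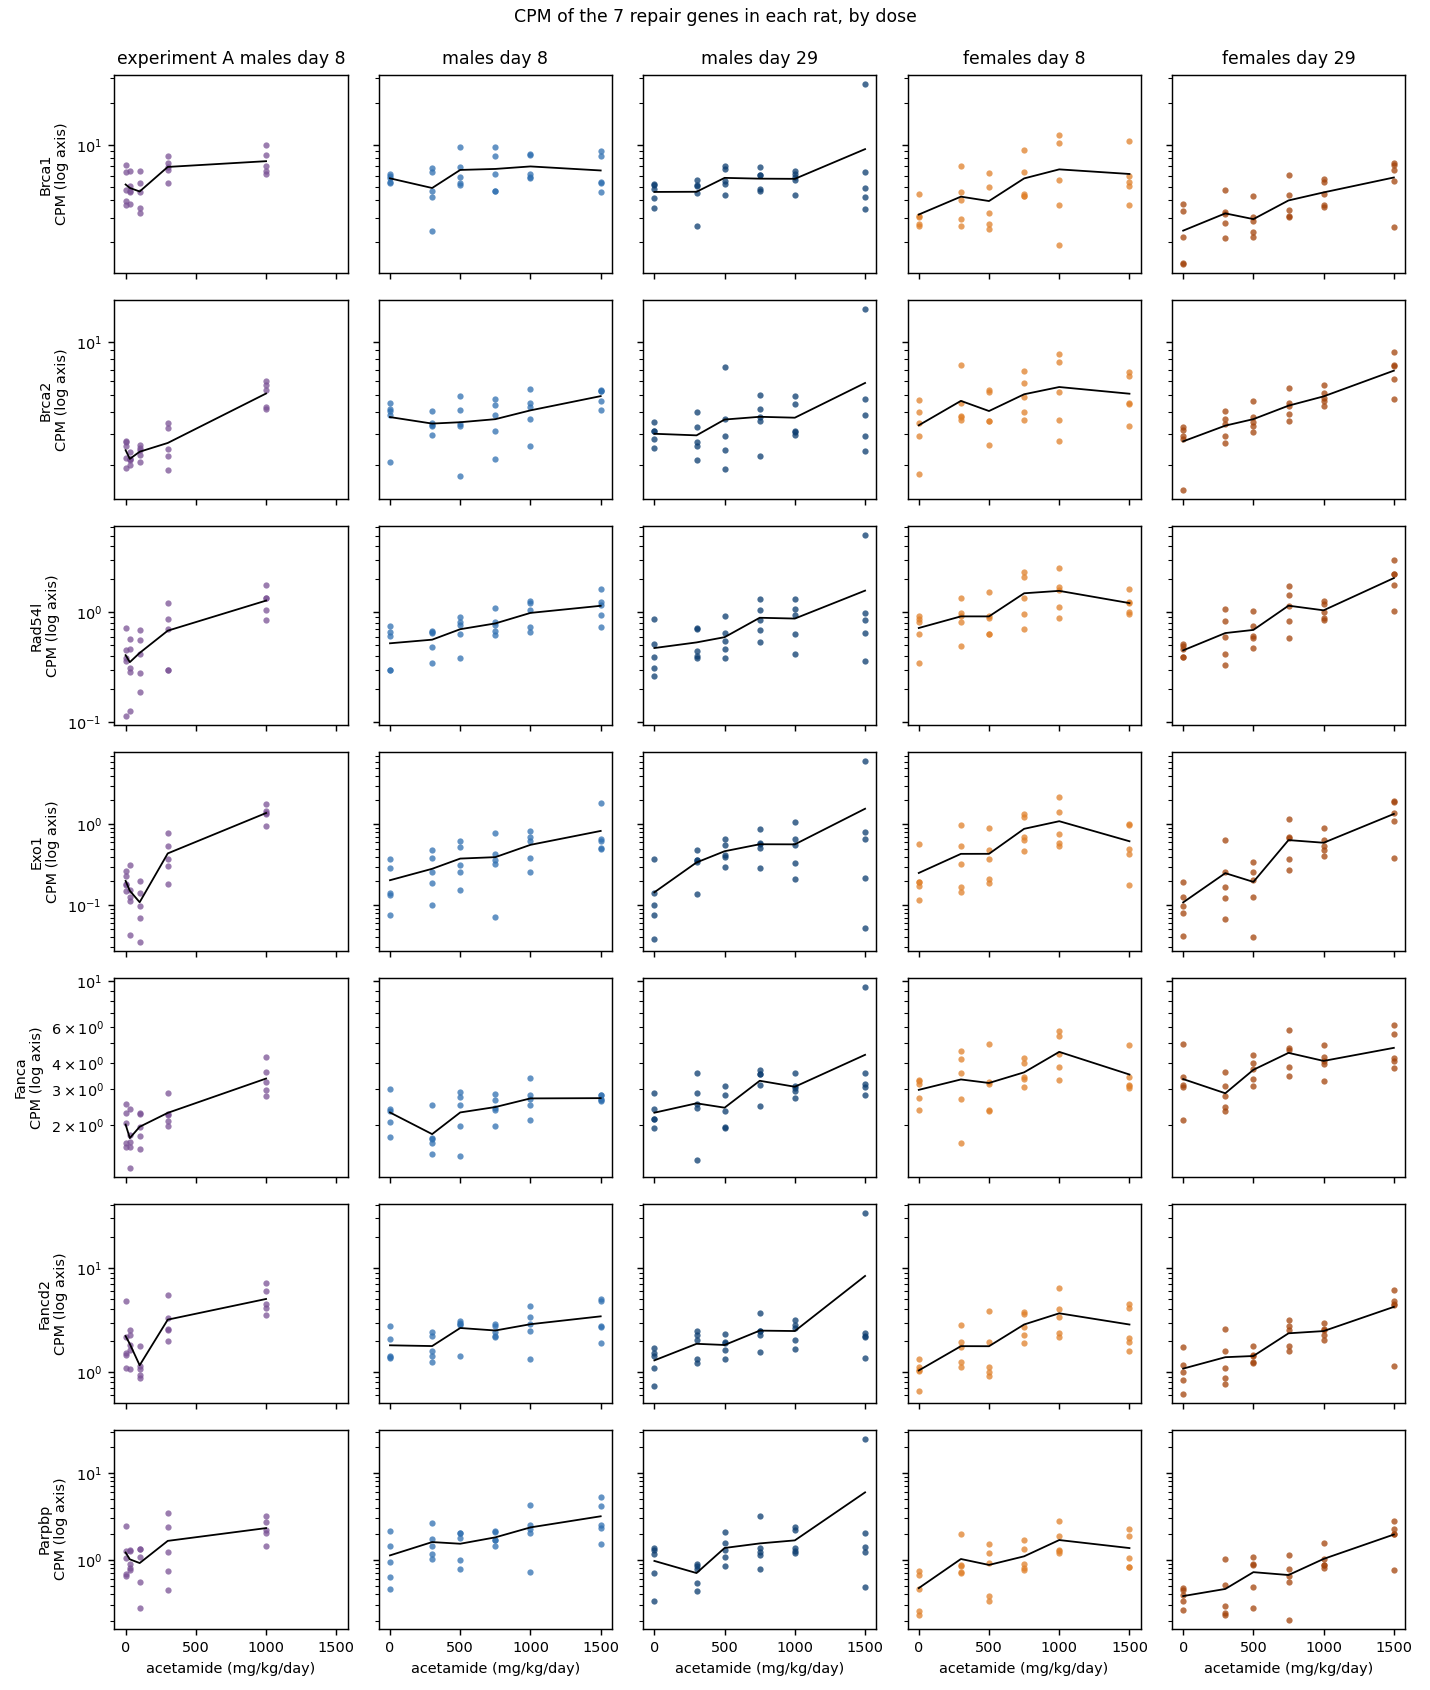
CPM on a log axis against dose for each gene (rows) and data set (columns), with a point per rat and a line through the group means. In males on day 29 the mean at 1500 mg/kg/day is lifted by replicate 3, for example 33.8 CPM of Fancd2, and in females on day 29 Exo1 goes from 0.108 to 1.35 CPM on average.

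The second question was whether the levels followed the dose over all groups of a data set. The slope of log2 expression on dose, per 1000 mg/kg/day, was positive for all 7 genes in all 5 data sets. It passed an adjusted p of 0.05 for 7 genes in experiment A (23.5% of all genes rose), 4 in males on day 8 (1.98%), 7 in males on day 29 (13.9%), 2 in females on day 8 (3.76%) and 7 in females on day 29 (15.4%). Exo1 had the steepest slope in experiment A, at 3.11 ± 0.31, and in females on day 29, at 2.27 ± 0.29. In males on day 8 the slopes of Exo1 (1.36 ± 0.27, adjusted p = 0.0058), Rad54l (0.81 ± 0.16, adjusted p = 0.0047), Parpbp (0.96 ± 0.22, adjusted p = 0.013) and Fancd2 (0.65 ± 0.16, adjusted p = 0.027) passed although no group did by itself. Without replicate 4 of every group none of the 4 passed. For females on day 8 Fancd2 (1.06 ± 0.26) and Parpbp (0.93 ± 0.27) passed, and neither did when replicate 2, 3 or 4 of every group was left out. Without replicate 3 at 1500 mg/kg/day, 0 slopes passed in males on day 29 (10.0% of all genes rose), and the smallest adjusted p was 0.0525, for Fanca with a slope of 0.30 ± 0.12. When the highest dose was left out of the fit, 0 slopes passed in experiment A and in males on day 8, 4 in males on day 29, 4 in females on day 8 and 6 in females on day 29. For males on day 29 these 4 were Rad54l, Exo1, Fancd2 and Parpbp, in a fit that does not contain replicate 3 of the highest dose. The share of all genes that passed in the fits without the highest dose is not given here, so these counts have no background beside them.

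**Figure D3:**
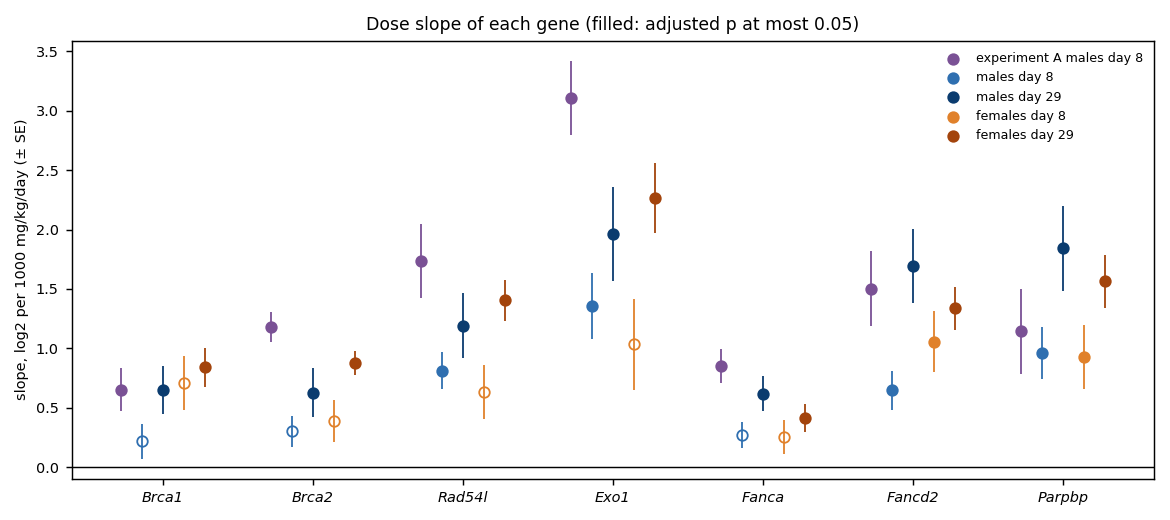
Slope of log2 expression per 1000 mg/kg/day (± SE) of each gene in the 5 data sets, filled where the adjusted p was at most 0.05. All slopes lie above 0, from 0.22 for Brca1 in males on day 8 to 3.11 for Exo1 in experiment A, and the points of males on day 29 include replicate 3.

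The third question was whether the response differed by sex, by duration or between the experiments. By edgeR's interaction test no gene of the 7, and no gene of the whole table (0%), differed in any of the 5 comparisons; unadjusted p values under 0.05 numbered 1, 0, 0, 2 and 2 for sex on day 8, sex on day 29, duration in males, duration in females and experiment A against B. Between day 8 and day 29 in females the response of Exo1 differed by 2.38 ± 0.77 and that of Rad54l by 1.45 ± 0.41 on the log2 scale (day 29 minus day 8, adjusted p = 0.898 for both). Brca2 at 1000 mg/kg/day on day 8 had a response of 1.08 in experiment A and 0.12 in males of experiment B, a difference of 0.95 ± 0.29 (adjusted p = 0.0849). DESeq2 called this difference, and the share of all genes that it called in this comparison is not given here. Strain, supplier and experiment changed together between these groups. For duration in males the differences (day 29 minus day 8) were positive for all 7 genes, from 0.54 for Brca2 to 1.73 for Fancd2. Without replicate 3 they were negative for 6 of the 7, from -1.14 ± 0.67 for Parpbp to -0.16 ± 0.28 for Brca1, with 0.20 ± 0.22 for Fanca, and the smallest adjusted p was 0.623. For sex on day 29 the differences (females minus males) ran from -0.67 to 0.50. Without replicate 3 they ran from 0.10 ± 0.30 for Fanca to 2.14 ± 0.98 for Exo1. Of the 7 genes, 6 then had an unadjusted p under 0.05, with adjusted p values from 0.0727 for Brca2. The share of all genes at such a p without that rat is not given here, so this count has no background beside it. The differences missed the adjusted threshold, which does not show that the sexes responded alike.

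Among vehicle rats, Brca1 was lower in females than in males on day 8, at 3.15 ± 0.726 against 5.74 ± 0.361 CPM, a log2 difference of -1.03 ± 0.24 (adjusted p = 0.0067; 4.26% of genes were lower in females). The female controls held 3.05, 4.40, 2.68, 2.60 and 3.03 CPM and the male controls 5.96, 6.20, 5.78, 5.42 and 5.34 CPM, without overlap. The share of all genes without overlap between these vehicle groups is not given here. On day 29 the log2 difference was -1.06, at 2.41 ± 1.10 against 4.58 ± 0.741 CPM, with an adjusted p of 0.169. Fancd2 and Parpbp were at 1.04 ± 0.249 and 0.473 ± 0.233 CPM in female and 1.81 ± 0.607 and 1.13 ± 0.691 CPM in male controls of day 8 (adjusted p = 0.0719 and 0.0620). None of the 7 genes differed between the vehicle groups by duration in either sex (0% of genes) or between experiment A and males of experiment B (0.352% higher and 0.800% lower in A).

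Across all rats, after centring each data set on its mean, the 21 pairs of the 7 genes had Pearson correlations of log2 CPM from 0.35 to 0.83, with a median of 0.69 (0.25 to 0.81 and 0.65 over the 144 rats that remained without replicate 3). The rats share doses, depth and data set, so these values are descriptions. The genes outside the list whose pattern was most like each member, among 11059 genes, were Mms22l for Brca1 (r = 0.80), Cep295 for Brca2 (0.81), Kif18b for Rad54l (0.85), Tpx2 for Exo1 (0.87), H2afx for Fanca (0.76), Cdca2 for Fancd2 (0.91) and Top2a for Parpbp (0.89). Kif18b, Tpx2 and Top2a encode a mitotic kinesin, a spindle assembly factor and topoisomerase II alpha, and Mms22l a factor that acts at stalled forks. Without replicate 3 the nearest genes of Rad54l and Parpbp became Mcm3 (0.84) and Ect2 (0.87).

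The mean log2 CPM of the 7 genes followed that of 22 proliferation markers, with r = 0.96 (Spearman's rho 0.96) over all rats centred per data set, and 0.96 without replicate 3. Within the data sets r ran from 0.93 in males on day 8 to 0.97 in males on day 29. Among the 25 vehicle rats alone, centred per data set, r was 0.83 (rho 0.84; 0.77 without the 2 rats farthest from the median). With each dose group centred on its own mean, r was 0.93. At the highest dose 19 of the 22 markers rose in experiment A, 1 in males on day 8, 13 in males on day 29 (5 without replicate 3), 2 in females on day 8 and 21 in females on day 29. The share of all genes called higher was 14.0%, 0.142%, 3.16% (1.12% without replicate 3), 0.522% and 9.55% in the same order. Examples of the markers are Ccnb1, Mki67 and Tk1, called in 4 data sets each. Without replicate 3, Mki67 was called in 3, since its log2 fold change in males on day 29 went from 3.47 to 0.90 (adjusted p = 0.104), while Ccnb1 and Tk1 were still called there at 1.40 and 0.85. The median log2 fold changes of all 22 markers were 1.64, 1.11, 2.08, 1.48 and 2.30 in these data sets, against 1.07, 0.94, 1.74, 0.96 and 1.98 for the 7 repair genes. In males on day 29 without replicate 3 they were 0.66 for the markers and 0.39 for the repair genes. The part of cell division in the repair genes' levels was not tested.

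**Figure D4:**
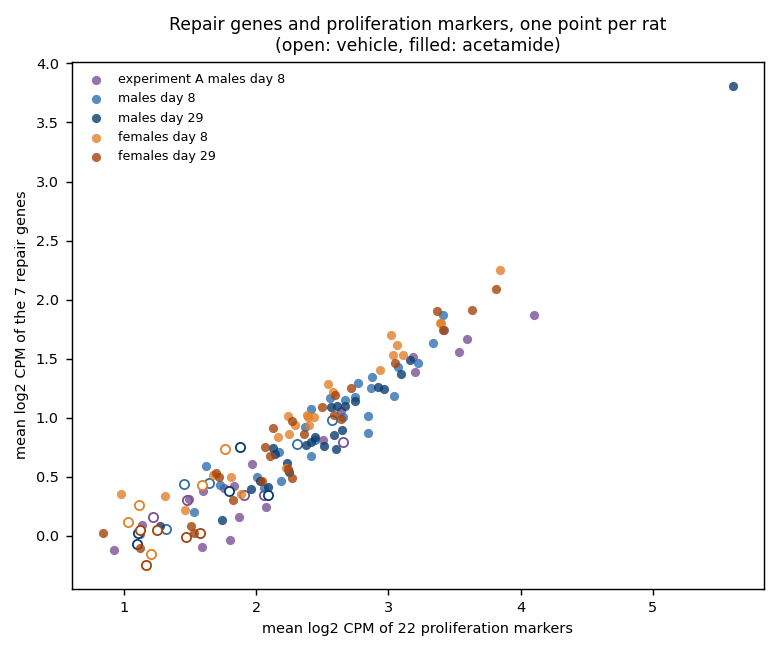
Mean log2 CPM of the 7 repair genes against that of 22 proliferation markers, with a point per rat, open for vehicle. The point at 5.61 on the x axis and 3.81 on the y axis is replicate 3 of the males given 1500 mg/kg/day until day 29, and r within the data sets was 0.93 to 0.97.

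Other genes of the pathway, from lists that hold 74 symbols of which 54 had a row and 53 were tested, were counted at the highest dose in the same way: 12 were called higher and 1 lower in experiment A, 0 in males on day 8, 10 higher in males on day 29 (without replicate 3, 0 higher and Mre11a and Rpa1 lower, at -0.99 and -0.62), 0 in females on day 8 and 11 higher in females on day 29. Their median log2 fold changes were 0.12, 0.13, 0.25, 0.10 and 0.20, against 0.07 in males on day 29 and 0.00 elsewhere for all genes tested. Without replicate 3 the median in males on day 29 was 0.11. Of all genes tested, 14.0%, 0.142%, 3.16% (1.12% without replicate 3), 0.522% and 9.55% were called higher in these data sets. In experiment A 7.45% were called lower, and in males on day 29 without replicate 3, 4.95%. Among the pathway genes called in 3 data sets (experiment A, males and females on day 29) were 5 described here. Bard1, the partner of BRCA1, had log2 fold changes of 1.70, 2.63 and 2.37 in these data sets. Polq, the polymerase of theta-mediated end joining, had 2.26, 2.17 and 2.47, and Eme1, a subunit of a structure-selective nuclease, 1.72, 1.95 and 2.11. Fancb, a core complex member, had 1.05, 2.20 and 1.82, and Ube2t, the enzyme that passes ubiquitin to FANCD2, 2.13, 3.47 and 2.96. Without replicate 3 none of the 5 was called in males on day 29, where their log2 fold changes ran from -0.20 for Eme1 to 1.16 for Ube2t. Rpa3, a subunit of the single-strand binding protein RPA, was the pathway gene called lower, in experiment A (-0.59, adjusted p = 0.0324).

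By sublist, in experiment A, 2 of 11 genes for resection and BRCA1 complexes, 2 of 9 for helicases and resolution and 3 of 15 for the Fanconi core and crosslink repair rose. There 14.0% of all genes tested were called higher. The counts in females on day 29 were 2, 2 and 2 of the same totals (9.55% of all genes). They were, in males on day 29, 1, 2 and 4 (3.16% of all genes), and 0 in each without replicate 3 (1.12% of all genes).

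**Figure D5:**
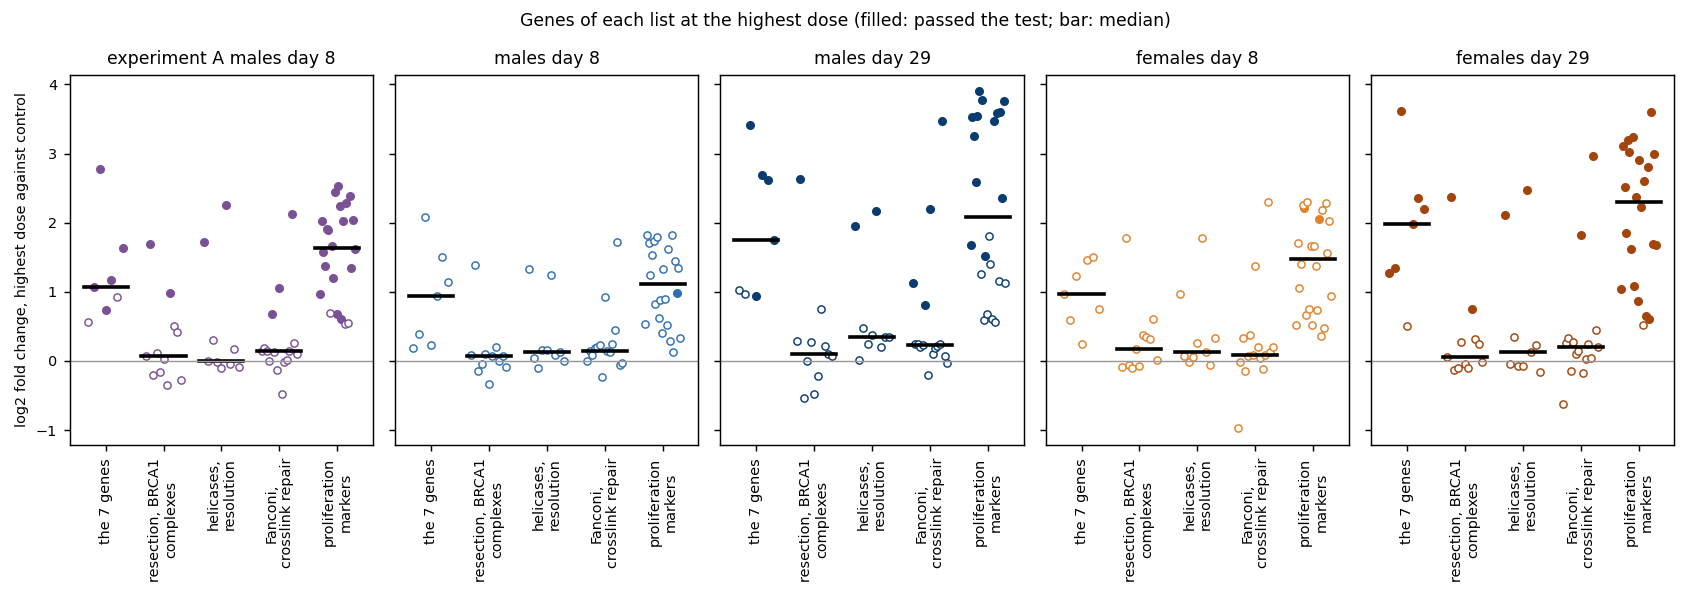
Log2 fold change at the highest dose of the 7 genes, of 3 lists of other pathway genes and of 22 proliferation markers in each data set, filled where called, with a bar at each median. In females on day 29 the medians are 1.98 for the 7 genes, 0.06 to 0.20 for the 3 lists and 2.30 for the proliferation markers.

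Other lists were counted at the highest dose in the same way. The share of all genes called higher was 14.0% in experiment A, 0.142% in males and 0.522% in females on day 8. On day 29 it was 3.16% in males (1.12% without replicate 3) and 9.55% in females. The share called lower was 7.45% in experiment A, 4.95% in males on day 29 without replicate 3 and 3.54% in females on day 29. Of 8 non-homologous end joining genes, Nhej1 (0.80) and Polm (0.91) rose in experiment A and none elsewhere. Of 6 mismatch repair genes none rose and Msh3 fell by 0.65 on the log2 scale in experiment A. Of 15 base excision repair genes Neil2 rose (1.04) and Ung was called lower (-0.76), again in experiment A (without replicate 3, Lig3 was called lower in males on day 29, at -0.60), and of 11 nucleotide excision repair genes Ddb2 was called lower there (-0.63). Of 14 damage checkpoint genes, 3 rose in experiment A, 2 of 13 in males on day 29 (0 without replicate 3), 5 in females on day 29 and 0 on day 8 in experiment B. Among them H2afx, the histone variant phosphorylated at breaks, was called in 3 data sets (0.85, 2.13 and 0.71), and in 2 without replicate 3 (0.47 in males on day 29). Of 20 p53 target genes, 9 rose in experiment A, 0 in males of experiment B (without replicate 3, Rrm2b was called lower on day 29, at -1.12), 1 in females on day 8 and 2 in females on day 29, and Phlda3 was the only one called in 3 data sets. Other cell types were followed by their markers. Macrophage markers rose in experiment A (6 of 10, summed level 534 to 1626 CPM in controls and 1325 to 2371 CPM in treated rats) and in females on day 29 (4 of 10, 1007 to 1245 and 1151 to 2269 CPM). T and NK cell markers rose in experiment A (7 of 8 tested, 22.7 to 27.8 and 38.4 to 70.7 CPM) and in females on day 29 (2 of 7, 16.8 to 42.5 and 32.2 to 64.8 CPM), and hepatocyte markers were called lower for 4 and 2 of 10. No macrophage, T and NK or hepatocyte marker was at 0 in every rat of these groups. For males on day 29, 0 macrophage and 0 T and NK cell markers passed. Endothelial markers rose for 3 of 6 in experiment A and 2 of 6 in females on day 29. Neutrophil markers (4 tested) rose for 1 and fell for 2 in experiment A and rose for 2 in females on day 29, and 2 erythroid markers fell in each of these data sets. Of 5 cholangiocyte markers 1 rose on day 29 in each sex (0 in males without replicate 3), of 7 stellate cell markers 1 in females on day 29, and no B cell marker passed. The erythroid marker Gata1 was at 0 in every control and highest-dose rat of every data set. The part of these cells in the repair genes' levels was not tested.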

How the data were processed

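The authors trimmed the reads with Trimmomatic, aligned them to the rat genome Rn6 with Bowtie2 and deposited whole-number counts per gene made with HTSeq (versions and strand setting not given in the sources used here). Reads not assigned to a gene, 35.5% to 67.1% of the totals in experiment B, were left out of library sizes. Here each of the 5 count tables was fitted by itself over all its dose groups with edgeR 4.0.16 in R 4.3.3 (filterByExpr, TMM, quasi-likelihood F test), leaving 11279 to 11497 genes. Calls required a 1.5-fold change with p, adjusted by Benjamini and Hochberg's method across every gene tested, no higher than 0.05; slopes and differences between responses needed the adjusted p alone. Log2 CPM used a prior count of 2. Alternatives were DESeq2 1.42.0, a minimum of 10 counts, other dose scales, a replicate block and leaving out each rat. Simulated counts were used to check the scripts.

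The members and lists were chosen with earlier results of these data known. Named were the members, other pathway genes called at the highest dose in 3 or more data sets or called lower in any, up to 3 examples of each other list, and the gene most correlated with each member. The single calls of the other repair lists were named after their values were seen. Some genes of the pathway lists are counted in the totals but not reported here. Sequences are from RefSeq (GRCr8), matched by symbol.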

Additional observations from a re-analysis of the deposited data

Results flagged for a closer look

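Within groups of 5 rats, the gap of the highest or lowest rat to its neighbour was set against the group's range (Dixon's test, critical value 0.71). Chance passes about 1 group in 20 for normally distributed values, which CPM of low counts need not be, and the 7 genes share rats. Among the control and highest-dose groups, 13 of 70 groups of the 7 genes passed, 11 of them through a high rat. Of these, 7 were replicate 3 of the males given 1500 mg/kg/day until day 29: Brca1 at 27.5 CPM (next highest 6.40), Brca2 at 15.4 (4.73), Rad54l at 5.05 (0.989), Exo1 at 6.10 (0.806), Fanca at 9.37 (3.59), Fancd2 at 33.8 (2.37) and Parpbp at 24.8 CPM (2.02). Its depth was 24937813 gene reads, and its mean log2 CPM of the 22 proliferation markers was 5.61, against 1.27 to 2.67 in the other 4 rats.

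The others were single genes. Exo1 was high in replicate 4 of the males given 1500 mg/kg/day until day 8, at 1.86 CPM (next 0.654), and in control replicate 2 of the females of day 8, at 0.578 CPM (next 0.193). Brca1 was high in that same control rat, at 4.40 CPM (next 3.05). Fanca was high in replicate 4 of the females given 1500 mg/kg/day until day 8, at 4.92 CPM (next 3.45). Brca2 was low in control replicate 1 of the males of day 8, at 2.08 CPM (next 3.88), and in control replicate 5 of the females of day 29, at 1.44 CPM (next 2.81).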

How the results depend on the processing

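At the highest dose, leaving out 1 rat, or the rats of 1 replicate number from every group, gave 4 to 6 genes called in experiment A, 0 to 2 in males on day 8, 0 to 6 in males on day 29, 0 to 2 in females on day 8 and 6 to 7 in females on day 29. In experiment A leaving out 1 rat gave 5 or 6, and the 4 came from leaving out all rats numbered 1 or 4. Males on day 29 fell from 5 to 0 without replicate 3 at 1500 mg/kg/day, to 2 (Exo1 and Fancd2) without control replicate 2 and to 3 without control replicate 1, 3 or 5. Males on day 8 rose from 0 to 2 without control replicate 5, and females on day 8 from 0 to 2 without treated replicate 1 or 5. DESeq2 called 3 in males and 2 in females on day 8. A minimum of 10 counts, which left 4 or 5 of the 7 genes to test, gave 2 in males and 3 in females on day 29. In males on day 29 a replicate block gave 2, and a fit of only the control and 1500 mg/kg/day groups gave 0.

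For the dose slopes, leaving out replicates gave 6 to 7, 0 to 4, 0 to 7, 0 to 2 and 6 to 7 genes in the same order. A minimum of 10 counts gave 4, 2, 4, 1 and 4. Leaving out the highest dose gave 0 in experiment A, 0 in males on day 8 and 4 in males on day 29. In females on day 8 (2 genes) DESeq2 gave 5, a logarithmic dose scale 5, no highest dose 4 and a replicate block 1. Differences between responses stayed at 0 whichever replicate was left out, and DESeq2 gave 1 between experiments A and B. For sex in vehicle rats of day 8 (1 gene) DESeq2 gave 3, the block 2 and leaving out replicates 1 to 2; the other vehicle comparisons stayed at 0. The cause of these changes was not tested, and the share of all genes passing under these settings is not given here.

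Of single values that changed sign, leaving out rats moved Brca1 in males on day 29 between -0.017 (without replicate 3 at 1500 mg/kg/day) and 1.21, and Eme1 between -0.26 (without replicate 3 of every group) and 2.34. Rpa3 there moved between -0.11 (likewise) and 0.14, and in females on day 29 between -0.50 and 0.055 (without control replicate 5). Of 719 alternative values of the 7 genes, 657 kept their direction and side of the threshold. Rats sharing a replicate number across groups had median correlations of -0.023 to 0.032, against -0.010 to -0.0047 for rats with different numbers. The main fits treated the numbers as names only, and a replicate block changed some calls, as given above. Exo1, at a median of 10 reads, is the gene most limited by depth.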
